A study of Mus musculus with 12 samples.

Results

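Ide, Hs3st1, Vps33a, Apol8 and Mab21l3 are 5 protein-coding genes whose levels parted by genotype in sorted epithelial cells of mouse skin wounds. They were chosen by measured values of these libraries, because the RORgt-deficient and wild-type libraries do not overlap for them in integrin alpha5-positive cells, or in integrin alpha5-positive and integrin alpha5-negative cells alike. They are 5 of the 55315 gene symbols of the count table, and all 5 were among the 16677 genes with enough counts to be tested. The levels by genotype that chose them are therefore given as a description, without a test.

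Epithelial cells were taken from a ring of skin 0.25 mm wide around wounds 3 days old. Cells with Epcam and integrin alpha6 on the surface were sorted into those with integrin alpha5 (A5-positive, which the labels assign to the migrating tongue) and those without it (A5-negative, the wound edge), after removal of cells that carried CD45, CD31 or CD117. The 4 groups were wild-type (WT) A5-negative, RORgt-deficient A5-negative, WT A5-positive and RORgt-deficient A5-positive cells, each with 3 libraries numbered 1 to 3. The RORgt-deficient libraries carry the name GFP-KI, a GFP knock-in. RORgt is a transcription factor that lymphocytes need to make interleukin-17. All mice were wounded, and 2 or 3 mice were pooled for each group and sequencing run, so that every p-value measures the spread between pools. The labels give no strain, sex, age or litter, so that genotype and any difference in origin of the mice cannot be told apart. In bulk RNA, fewer cells of a type and less RNA per cell cannot be told apart either.

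The 5 genes belong to different pathways. Ide encodes insulin-degrading enzyme, a zinc peptidase of the M16 family that cleaves insulin and other short peptides. Hs3st1 encodes a heparan sulfate 3-O-sulfotransferase, which adds the sulfate group that antithrombin needs to bind heparan sulfate. Vps33a encodes a Sec1/Munc18-type protein of the HOPS and CORVET complexes, which tether endosomes and lysosomes before they fuse. Apol8 is a member of the mouse apolipoprotein L cluster, and Mab21l3 is a member of the Mab21 family, which shares a nucleotidyltransferase fold. Mice of different strains can carry different copy numbers or alleles of a gene. One region known to vary in copy number among C57BL/6J mice holds Ide and Fgfbp3 on chromosome 19.

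Total counts per library ran from 29293687 to 74563616. Levels below are CPM values (counts relative to library size) scaled with TMM factors of 0.919 to 1.08, and changes are log2 fold changes (RORgt-deficient minus WT) with a standard error (SE) from 1 model of all 12 libraries. The keratinocyte markers summed to 31472 to 77456 CPM, and Itga5, the gene of integrin alpha5, had 42.2 to 61.3 CPM in A5-negative and 85.1 to 137 CPM in A5-positive libraries. The 9 fibroblast markers, none of them at 0 in any group, summed to 3743 to 7994 CPM in WT and 9619 to 15907 CPM in RORgt-deficient A5-positive libraries, and to 75.5 to 224 and 54.3 to 499 CPM in the A5-negative libraries. Their part in the A5-positive results was not tested. The Y-linked genes Ddx3y, Eif2s3y, Uty and Kdm5d had 0 counts in all 12 libraries. Of the tested genes the annotation places 1 on chromosome Y, Gm47283. Because the Y-linked genes above had 0 counts, its level is not read as a sex difference. The source of its reads was not tested. Gm47283 had 5.45 to 18.3 CPM in WT and 1.12 to 5.33 CPM in RORgt-deficient libraries, which do not overlap. Its changes were -1.69 ± 0.39 in A5-positive (edgeR, adjusted p = 0.178; 0.043 with the library number as a block) and -1.72 ± 0.38 in A5-negative cells (adjusted p = 0.738; 0.157 with the block).

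RefSeq holds a start site window of 300 bases for each of the 5 genes (GRCm38.p6, 250 bases before to 50 after the start). The windows of Ide and Vps33a are shown because they hold a motif that was searched, and that of Hs3st1 because it is the 1 gene of the 5 that was higher in RORgt-deficient cells. All 3 lie on the minus strand and are written 5′ to 3′, at chr19:37334495-37334794, chr5:123572966-123573265 and chr5:39644582-39644881. Capitals mark AGGTCA or its reverse complement TGACCT (the half-site that ROR proteins bind) and CACGTG (the palindromic E-box).

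Ide: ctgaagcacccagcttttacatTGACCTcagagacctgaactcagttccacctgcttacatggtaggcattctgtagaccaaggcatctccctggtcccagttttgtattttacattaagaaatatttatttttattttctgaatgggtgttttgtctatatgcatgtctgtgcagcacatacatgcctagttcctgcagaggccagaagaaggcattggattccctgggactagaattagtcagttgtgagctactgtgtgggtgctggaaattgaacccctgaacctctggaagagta

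Vps33a: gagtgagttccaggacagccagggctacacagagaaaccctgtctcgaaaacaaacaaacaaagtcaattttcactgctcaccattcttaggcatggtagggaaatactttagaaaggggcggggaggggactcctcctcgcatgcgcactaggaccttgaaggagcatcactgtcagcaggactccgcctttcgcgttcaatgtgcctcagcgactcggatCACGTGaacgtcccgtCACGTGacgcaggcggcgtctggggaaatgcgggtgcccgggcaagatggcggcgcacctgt

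Hs3st1: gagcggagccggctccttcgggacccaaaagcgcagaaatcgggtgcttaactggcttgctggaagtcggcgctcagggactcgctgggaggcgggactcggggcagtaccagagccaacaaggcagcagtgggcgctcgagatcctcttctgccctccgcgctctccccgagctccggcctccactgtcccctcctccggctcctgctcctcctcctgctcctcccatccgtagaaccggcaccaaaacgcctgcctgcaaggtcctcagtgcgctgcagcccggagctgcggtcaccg

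On both strands AGGTCA is found in 5340 of 32851 such windows (16.3%), and of the 5 genes in that of Ide alone, 1 time. The RefSeq starts lie inside the GENCODE gene by 3308 bases for Ide, 12736 for Mab21l3 and 110844 for Hs3st1, so the outer starts of these 3 genes were not searched. The window of Vps33a holds CACGTG 2 times, a motif found in 2349 windows (7.15%) and added to the search after the sequences were seen. ACGTG, the core of the hypoxia response element, overlaps CACGTG and is found in 6447 windows (19.6%); of the 5 genes it is in that of Vps33a alone, where all 4 matches on the 2 strands are those of the 2 CACGTG sites. These matches are letters in a window, and binding was not measured.

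Ide (chromosome 19, 37268743 to 37337852, minus strand, GRCm38) was lower in every RORgt-deficient library than in every WT library of either fraction. The WT A5-negative libraries 1 to 3 had 330, 371 and 509 CPM and the RORgt-deficient A5-negative libraries 219, 238 and 298 CPM. The WT A5-positive libraries had 419, 391 and 563 CPM and the RORgt-deficient A5-positive libraries 216, 214 and 246 CPM. Library 3 was the highest of its group in all 4 groups, and the 6 RORgt-deficient values lay below the 6 WT values. The group means were 403 ± 94.0 and 252 ± 40.9 CPM (SD, n = 3) in WT and RORgt-deficient A5-negative cells, and 458 ± 92.2 and 226 ± 17.9 CPM in A5-positive cells. The genotype change was -1.02 ± 0.19 in A5-positive cells, a level 0.493 times that of WT. It was -0.68 ± 0.19 in A5-negative cells, or 0.624 times.

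Between libraries of the same number, Ide was lower in the RORgt-deficient one each time. The differences of log2 CPM were -0.96, -0.87 and -1.19 for numbers 1 to 3 in A5-positive cells. They were -0.59, -0.64 and -0.77 in A5-negative cells. The 3 A5-positive differences were all larger in size than the 3 A5-negative ones. Choice by values in A5-positive cells can favour this order, for Ide and for the genes below, so nothing is read from it.

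Hs3st1 (chromosome 5, 39613935 to 39755475, minus strand) was the 1 gene of the 5 that was higher without RORgt. The WT A5-negative libraries 1 to 3 had 46.8, 69.7 and 39.3 CPM and the RORgt-deficient A5-negative libraries 130, 176 and 79.3 CPM. The WT A5-positive libraries had 20.2, 38.8 and 32.8 CPM and the RORgt-deficient A5-positive libraries 84.9, 159 and 60.9 CPM. The genotypes did not overlap within either fraction, but the lowest RORgt-deficient A5-positive library lay below the highest WT A5-negative one. Library 2 was the highest of its group in all 4 groups. The means were 51.9 ± 15.8 and 128 ± 48.4 CPM in A5-negative cells and 30.6 ± 9.49 and 101 ± 51.0 CPM in A5-positive cells, WT first. The change was 1.73 ± 0.39 in A5-positive cells, 3.32 times the WT level. In A5-negative cells it was 1.31 ± 0.39, or 2.47 times.

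Hs3st1 varied most between libraries of 1 group, with an SD of 30.4% to 50.2% of the mean. By number, its genotype differences were 2.07, 2.03 and 0.89 in A5-positive cells and 1.47, 1.34 and 1.01 in A5-negative cells. Number 3 gave the smallest difference in both fractions. Without the RORgt-deficient A5-positive library 2, the change in A5-positive cells was 1.26.

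Vps33a (chromosome 5, 123528659 to 123573038, minus strand) was lower in all 6 RORgt-deficient libraries than in all 6 WT libraries, with a wider gap in A5-positive cells. The WT A5-negative libraries 1 to 3 had 53.5, 52.6 and 57.4 CPM and the RORgt-deficient A5-negative libraries 47.7, 39.9 and 49.5 CPM. The WT A5-positive libraries had 74.0, 62.7 and 66.9 CPM and the RORgt-deficient A5-positive libraries 41.8, 37.5 and 44.5 CPM. The nearest libraries of the 2 genotypes were at 52.6 and 49.5 CPM in A5-negative cells and at 62.7 and 44.5 CPM in A5-positive cells. The change was -0.72 ± 0.12 in A5-positive cells (from 67.9 ± 5.74 to 41.3 ± 3.54 CPM) and -0.25 ± 0.12 in A5-negative cells (from 54.5 ± 2.57 to 45.7 ± 5.12 CPM). Differences by number ran from -0.82 to -0.59 in A5-positive and from -0.40 to -0.17 in A5-negative cells. Vps33a and Hs3st1 lie 83.8 Mb apart on chromosome 5.

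Apol8 (chromosome 15, 77747798 to 77757003, minus strand) parted in A5-positive cells and not in A5-negative cells. The WT A5-positive libraries 1 to 3 had 9.03, 9.73 and 6.63 CPM and the RORgt-deficient A5-positive libraries 3.14, 3.38 and 3.09 CPM. The WT A5-negative libraries had 5.99, 5.57 and 3.63 CPM and the RORgt-deficient A5-negative libraries 4.82, 4.18 and 4.63 CPM. In A5-negative cells WT library 3 lay below all 3 RORgt-deficient libraries, and WT libraries 1 and 2 above them. The change was -1.40 ± 0.23 in A5-positive cells, 0.378 times the WT level, and -0.16 ± 0.23 in A5-negative cells. It was the least abundant of the 5, with 111 to 516 counts in a library. Apol8 lies in a cluster of similar genes, and how multiply mapping reads were counted is not given in the sources used here, so its counts are uncertain to that extent.

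Mab21l3 (chromosome 3, 101813076 to 101848959, minus strand) was lower by about the same amount in both fractions. The WT A5-negative libraries 1 to 3 had 18.9, 18.6 and 18.6 CPM and the RORgt-deficient A5-negative libraries 6.34, 10.6 and 10.9 CPM. The WT A5-positive libraries had 22.1, 23.3 and 19.0 CPM and the RORgt-deficient A5-positive libraries 7.60, 12.9 and 10.9 CPM. The 6 WT values lay between 18.6 and 23.3 CPM, and no RORgt-deficient value exceeded 12.9 CPM. The changes were -1.04 ± 0.23 in A5-positive cells, 0.488 times the WT level, and -1.01 ± 0.23 in A5-negative cells, 0.495 times. RORgt-deficient library 1 was the lowest in each fraction, with differences of -1.54 and -1.58 for number 1 against -0.85 to -0.77 for numbers 2 and 3.

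**Figure D1:**
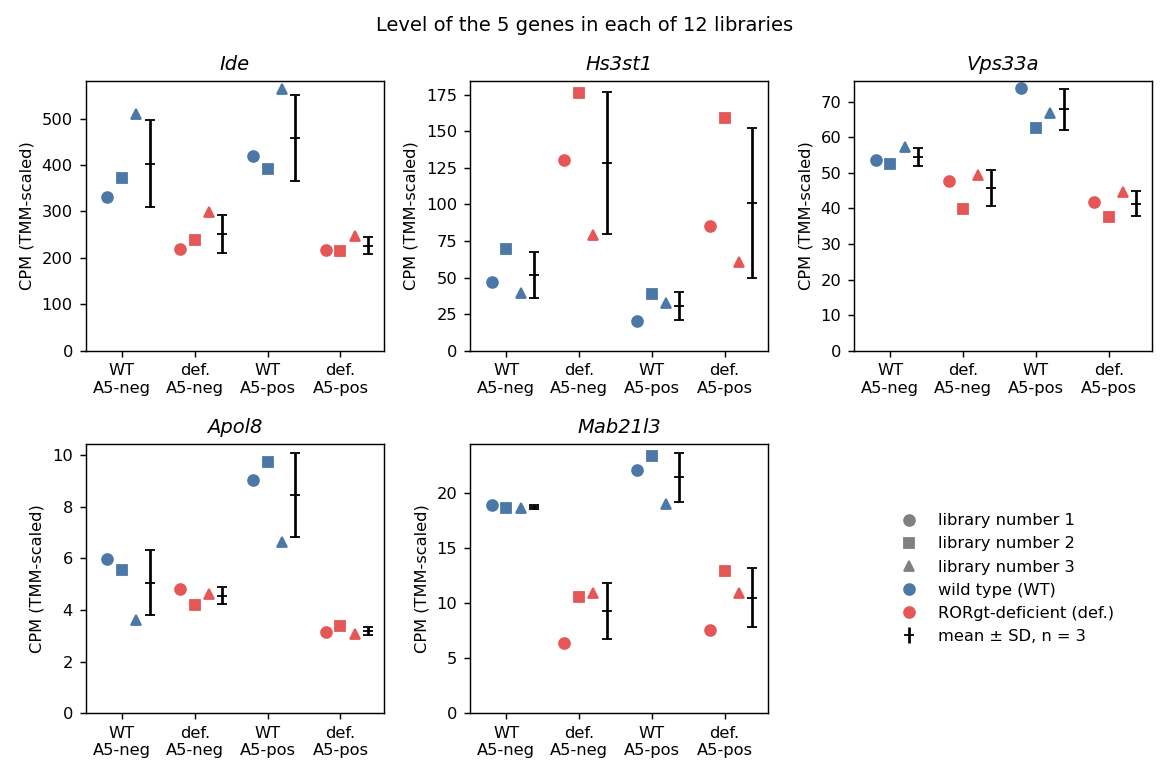
Level of each gene in CPM (vertical axes, from 0) in the 12 libraries, by group on the horizontal axis; blue marks WT, red RORgt-deficient, the symbol gives the library number, and the black bar is the mean ± SD of 3 libraries. Red symbols lie below blue ones for Ide, Vps33a and Mab21l3 in all libraries, above them within each fraction for Hs3st1, and below them only in A5-positive cells for Apol8.

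Per kilobase of exon, which allows genes to be compared, Ide and Hs3st1 were the most abundant of the 5 genes. In WT cells Ide stood above Hs3st1 beyond their SDs, at 53.7 ± 12.5 against 23.3 ± 7.09 CPM per kb in A5-negative and 61.0 ± 12.3 against 13.7 ± 4.26 in A5-positive cells. In RORgt-deficient cells the order of the means was turned, with Hs3st1 at 57.6 ± 21.7 and Ide at 33.6 ± 5.44 in A5-negative and 45.5 ± 22.9 and 30.0 ± 2.38 in A5-positive cells, but the SDs overlap. Vps33a had group means of 8.62 to 14.2 CPM per kb and in WT A5-positive cells, at 14.2 ± 1.20, did not differ from Hs3st1 beyond their SDs. Mab21l3 followed with 2.57 to 5.94 and Apol8 with 1.08 to 2.86 CPM per kb.

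The rule used these genotype contrasts, so nothing is read from how many of the genes part. For reference, the genotypes did not overlap in A5-positive cells for 3011 of 16677 tested genes (18.1%), and 5 of the 5 genes were among them by choice. In A5-negative cells they did not overlap for 2601 genes (15.6%). In all 12 libraries 172 genes parted (1.03%), 89 of them lower in RORgt-deficient cells (0.534%), among them Ide, Vps33a and Mab21l3. Across all genes the genotype test (edgeR quasi-likelihood, adjusted p below 0.05) called 1 gene in each fraction (0.006%), Gm3608, and 2497 (15.0%) had an unadjusted p below 0.05 in A5-positive and 849 (5.09%) in A5-negative cells. With the library number as a block it called 670 genes in A5-positive cells (4.02%) and again 1, Gm3608, in A5-negative cells (0.006%). DESeq2 called 493 and 21 genes.

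**Figure D2:**
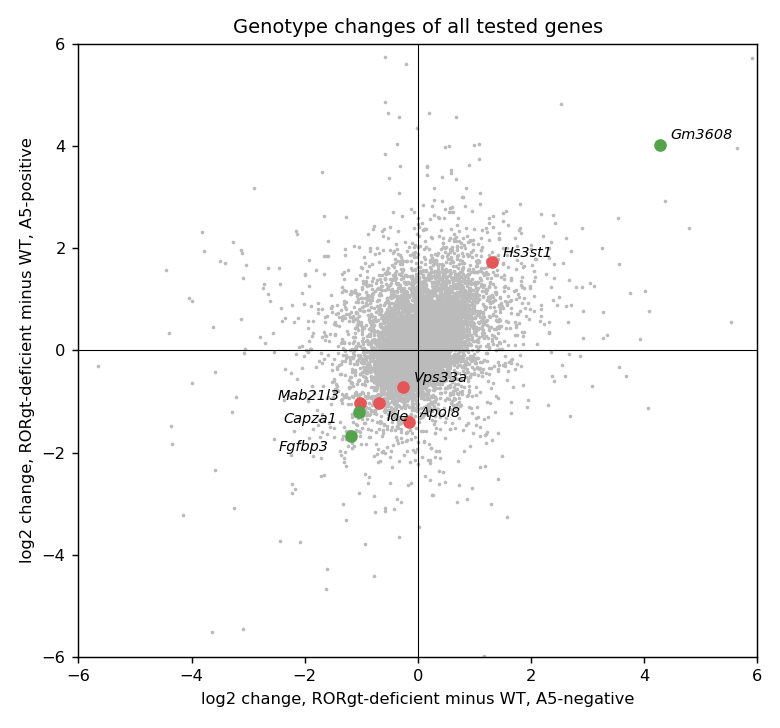
Each point is 1 of the tested genes, with its log2 change (RORgt-deficient minus WT) in A5-negative cells on the horizontal and in A5-positive cells on the vertical axis; red points are the 5 genes and green points are other named genes, and 12 genes lie outside the axes of ±6. Hs3st1 lies at 1.31 and 1.73, Mab21l3 at -1.01 and -1.04, and Apol8 at -0.16 and -1.40.

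The A5 effect averaged over the genotypes was the contrast tested for the 5 genes, because with groups of equal size it is orthogonal to the genotype contrasts that chose them. Across all genes 3039 of 16677 changed (18.2%), 1980 up (11.9%) and 1059 down (6.35%), and 5661 with the replicate block (33.9%). None of the 5 genes passed (edgeR quasi-likelihood), none had an unadjusted p below 0.05 (34.7% of all genes did), and DESeq2 and voom called none either; with the block 1 of 5 passed, Hs3st1. Hs3st1 was lower in A5-positive cells by -0.55 ± 0.27 (adjusted p = 0.169), and by -0.56 ± 0.16 with the block (adjusted p = 0.0189). Its level was lower in the A5-positive than in the A5-negative library of the same number and genotype in 6 of 6 pairs, by -1.22, -0.85 and -0.26 in WT and by -0.62, -0.15 and -0.38 in RORgt-deficient mice. The call with the block was lost without WT A5-negative library 3 (adjusted p = 0.0533), WT A5-positive library 1 (adjusted p = 0.0595) or WT A5-positive library 2 (adjusted p = 0.0658). Without the block, leaving out RORgt-deficient A5-positive library 2 gave -0.83 with an adjusted p of 0.0325. Over all 30 alternatives its adjusted p ran from 0.000723 to 0.366.

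The other 4 genes had averaged A5 effects near 0. They were 0.01 ± 0.14 for Ide (adjusted p = 0.964), 0.09 ± 0.09 for Vps33a (adjusted p = 0.515), 0.12 ± 0.16 for Apol8 (adjusted p = 0.642) and 0.19 ± 0.16 for Mab21l3 (adjusted p = 0.436), all by edgeR. For Ide, Vps33a and Apol8 this average joins opposite signs. In WT mice Apol8 was higher in A5-positive cells by 0.59, 0.81 and 0.87 for numbers 1 to 3, and in RORgt-deficient mice it was lower by -0.62, -0.31 and -0.59. Vps33a was higher by 0.47, 0.25 and 0.22 in WT and lower by -0.19, -0.09 and -0.15 in RORgt-deficient mice. Over all genes the interaction of genotype and A5 status called 0 (0.0%) with edgeR, with 458 at an unadjusted p below 0.05 (2.75%), and DESeq2 called 8. Mab21l3 had the same sign in both genotypes, by 0.03 to 0.32 in WT and by 0.00 to 0.28 in RORgt-deficient mice.

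The region around Ide was examined because Fgfbp3, a secreted carrier protein of fibroblast growth factors, lies 0.418 Mb from it, with Btaf1, a factor that removes the TATA-binding protein from DNA, next to Fgfbp3 at 0.412 Mb. Fgfbp3 had 24.8, 12.2 and 38.5 CPM in WT A5-positive libraries 1 to 3 and 10.3, 4.08 and 8.99 CPM in the RORgt-deficient ones. In A5-negative cells it had 16.6, 11.2 and 27.8 CPM in WT and 6.0, 7.02 and 11.7 CPM in RORgt-deficient libraries. The genotypes parted in A5-positive cells and overlapped in A5-negative cells, where RORgt-deficient library 3 lay above WT library 2. The change in A5-positive cells was -1.68 ± 0.47 (edgeR, adjusted p = 0.198), and -1.62 ± 0.26 with the replicate block (adjusted p = 0.024). In A5-negative cells it was -1.18 ± 0.47 (adjusted p = 0.779; 0.157 with the block). By number Fgfbp3 was lower in all 6 differences, from -2.10 to -1.26 in A5-positive and from -1.47 to -0.68 in A5-negative cells. These 6 differences come from library numbers 1 to 3, which both fractions share.

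Btaf1 did not share this pattern of signs. It had changes of 0.16 ± 0.29 in A5-positive (edgeR, adjusted p = 0.826) and 0.18 ± 0.29 in A5-negative cells (adjusted p = 0.887), with overlapping libraries of 64.7 to 118 CPM in WT and 46.7 to 121 CPM in RORgt-deficient mice. Within 1 Mb of Ide 17 tested genes start. In A5-positive cells 3 of them had an unadjusted p below 0.05 (17.6%, against 15.0% of all tested genes). The edgeR test called 0 of the 17, DESeq2 1 and the block 2. The 2 were Fgfbp3 and Pcgf5, a Polycomb subunit, which was higher by 0.56 ± 0.13 (adjusted p = 0.0407 with the block). The median change of the 17 was 0.01. The nearest tested genes, Rpl10-ps6 and the mitotic kinesin gene Kif11, had changes of -0.68 ± 0.50 and -0.04 ± 0.27. Cpeb3 lies with Btaf1 between Fgfbp3 and Ide. Its changes were 0.71 ± 0.37 in A5-positive (edgeR, adjusted p = 0.386) and 0.47 ± 0.37 in A5-negative cells (adjusted p = 0.783). Copy number was not measured.

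**Figure D3:**
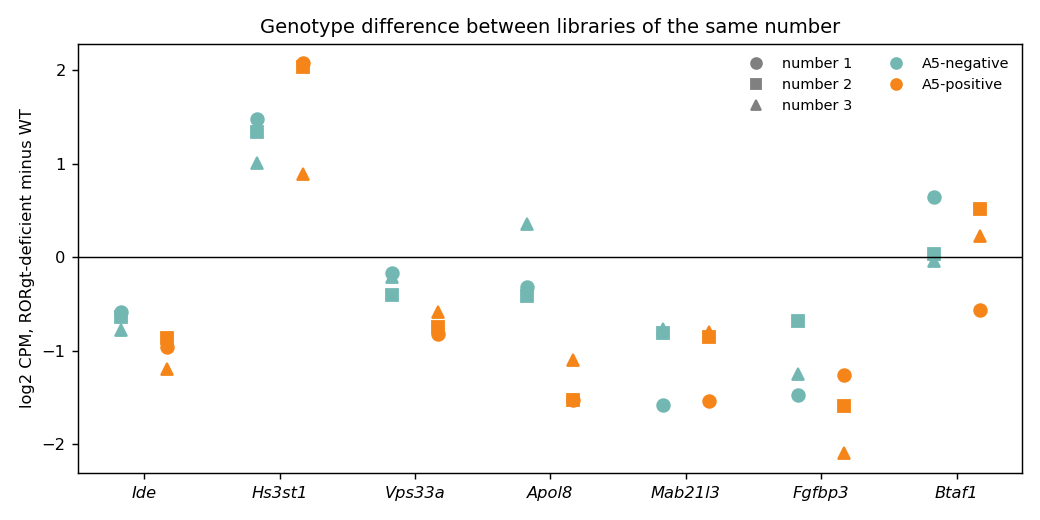
Difference of log2 CPM between the RORgt-deficient and the WT library of the same number (vertical axis) for the 5 genes and for Fgfbp3 and Btaf1, with symbols for the number and colours for the fraction. Ide, Vps33a, Mab21l3 and Fgfbp3 lie below 0 in all 6 differences, Hs3st1 lies above 0 in all 6, and Btaf1 lies on both sides.

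Within 1 Mb of Vps33a, 48 genes were tested. In A5-positive cells 9 had an unadjusted p below 0.05 (18.8%, against 15.0% of all tested genes). The edgeR test called 0, DESeq2 3 and the block 4. The 4 were Ift81 (-1.04 ± 0.25, adjusted p = 0.0469), an intraflagellar transport gene that parts in all 12 libraries, the lysosomal peptide transporter gene Abcb9 (-0.81 ± 0.12, adjusted p = 0.0164), the histone methyltransferase gene Kmt5a (-0.38 ± 0.09, adjusted p = 0.048) and the glucose-sensing factor gene Mlxip (0.45 ± 0.10, adjusted p = 0.0417). Diablo, next to Vps33a, had a change of -0.27 ± 0.21, and Gm42651, on the other side, one of 1.48 ± 0.59 (adjusted p = 0.281).

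**Figure D4:**
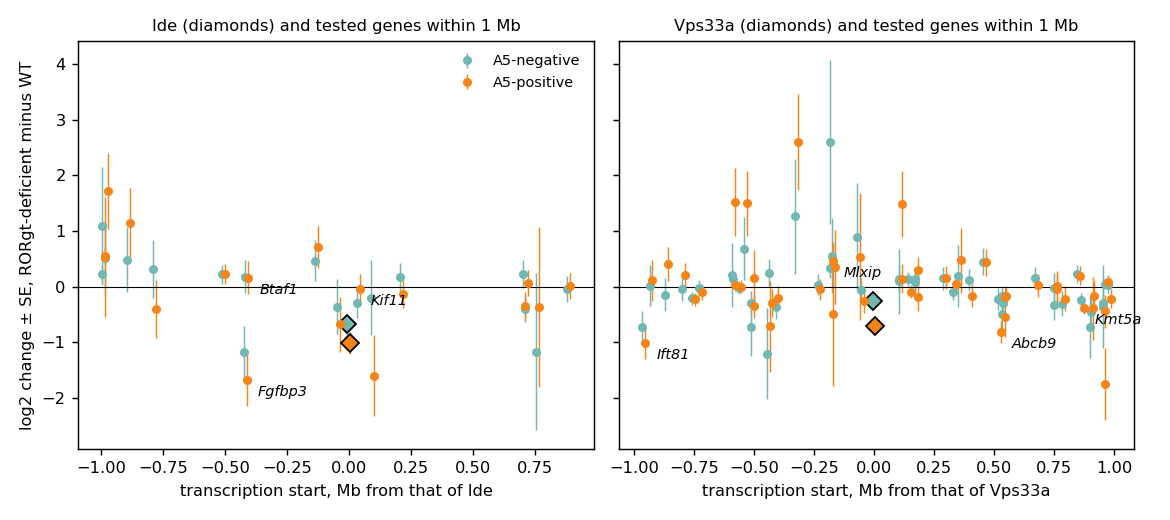
Log2 change ± SE (vertical axis) of Ide, of Vps33a (diamonds) and of the tested genes that start within 1 Mb of each (circles), by distance in Mb (horizontal axis), in A5-negative (teal) and A5-positive (orange) cells. Fgfbp3 lies at -1.68 and -1.18 beside Btaf1 at 0.16 and 0.18, and Vps33a at -0.72 and -0.25 beside Diablo at -0.27 in A5-positive cells.

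Near Apol8 edgeR, the block and DESeq2 called 0 of 33 genes in A5-positive cells. An unadjusted p below 0.05 was found for 3 (9.09%, against 15.0% of all tested genes). The nearest, Gm49410 and Gm22107, had changes of 0.10 ± 0.90 and 0.64 ± 0.25. Near Hs3st1 the 1 tested gene was Gm42528, at 1.69 ± 1.05 (adjusted p = 0.453), and the next, Gm4754 at 1.59 Mb, had a change of -0.03 ± 0.63. Slc22a15, a transporter gene and the nearest tested gene on one side of Mab21l3, had a change of -0.29 ± 0.15.

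The partners of each gene were followed through lists that hold the pathway's other genes. In no list did edgeR call a gene by genotype in either fraction. The 7 lists include 19 tested interleukin-17 response genes and 5 tested genes that differ between strains, which were not listed as partners. Of 106 genes in the 7 lists, 28 had an unadjusted p below 0.05 in A5-positive cells (26.4%, against 15.0% of all tested genes). In A5-negative cells 12 did (11.3%, against 5.09%). The block called 9 of the 106 in A5-positive cells, where it called 4.02% of all tested genes, and 0 in A5-negative cells. DESeq2 called 6 and 0.

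Among peptidases related to Ide and insulin receptor genes, 9 of 16 tested genes lay below 0 in A5-positive cells and 7 above, with a median change of -0.12 against 0.00 over all genes. Of the other M16 peptidases, Nrd1 had a change of -0.22 ± 0.17 and Pitrm1 one of -0.12 ± 0.22. The block called Irs2, an adaptor of the insulin receptor, higher by 0.65 ± 0.14 (adjusted p = 0.0377), and Lnpep, an aminopeptidase of insulin-regulated vesicles, higher by 0.64 ± 0.15 (adjusted p = 0.046). Without the block their adjusted p-values were 0.178 and 0.238. Of the 16 genes, 6 had an unadjusted p below 0.05 in A5-positive cells (37.5%, against 15.0% of all tested genes). In A5-negative cells 5 did (31.2%, against 5.09%).

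Of 33 tested genes that make, trim or carry heparan sulfate, 17 lay above 0 and 16 below in A5-positive cells, with a median of 0.03. An unadjusted p below 0.05 was found for 4 (12.1%, against 15.0% of all tested genes). Hs3st6, Hs3st3b1 and Hs3st3a1, which encode related 3-O-sulfotransferases, were not called by edgeR with or without the block. The changes were 0.25 ± 0.19 for Hs3st6, 0.27 ± 0.30 for Hs3st3b1 and -0.03 ± 0.62 for Hs3st3a1, which had no more than 1.08 CPM, while Hs3st2, Hs3st4 and Hs3st5 were too low to test. Sdc4, a syndecan that carries heparan sulfate chains, was the 1 gene called with the block (0.57 ± 0.13, adjusted p = 0.0404; without the block 0.209). Its means were 612 ± 131 CPM in WT and 903 ± 103 CPM in RORgt-deficient A5-positive cells.

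Of the 20 tested HOPS, CORVET and late endosome genes besides Vps33a, 17 lay below 0 in A5-positive cells and 3 above, also with RLE factors and with voom. The median was -0.19, and 8 genes did not overlap between genotypes, all lower (40.0%, against 18.1% of all tested genes). None was called by edgeR with or without the block or by DESeq2, and 8 had an unadjusted p below 0.05 (40.0%, against 15.0% of all tested genes). Rab5b, a GTPase of early endosomes, had a change of -0.38 ± 0.11 (adjusted p = 0.207) and Tgfbrap1, a CORVET subunit, one of -0.42 ± 0.13 (adjusted p = 0.209). The paralog Vps33b had a change of -0.49 ± 0.17 (adjusted p = 0.227), from 23.3 ± 2.00 to 16.5 ± 4.09 CPM. In A5-negative cells 12 lay below 0 and 8 above, with a median of -0.04. There 0 of the 20 had an unadjusted p below 0.05 (0.0%, against 5.09% of all tested genes).

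Of the apolipoprotein L family 5 other genes could be tested, and edgeR called 0 of them in A5-positive cells, with the block, by DESeq2 or at an unadjusted p below 0.05. The changes were 0.33 ± 0.40 for Apol7a, 0.38 ± 0.59 for Apol9a, -0.29 ± 0.51 for Apol9b, 0.33 ± 0.82 for Apol10b and 0.87 ± 0.56 for Apold1. In A5-negative cells 2 of the 5 had an unadjusted p below 0.05 (40.0%, against 5.09% of all tested genes). They went in opposite directions, Apol7a at 0.89 ± 0.40 and Apold1 at -1.52 ± 0.68, and edgeR called neither. None of the 5 reached 4 CPM in any library. In the Mab21 family 7 of 8 tested genes lay below 0 in A5-positive cells. Of the 8, 2 had an unadjusted p below 0.05 (25.0%, against 15.0% of all tested genes). The block called 1, Tmem102 (-0.72 ± 0.16, adjusted p = 0.0394; without the block 0.178). Cgas, the sensor of cytosolic DNA, had a change of -0.52 ± 0.19 (adjusted p = 0.241), and Mab21l1 and Mab21l2 were too low to test.

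The keratinocyte genes that answer to interleukin-17 were set beside the 5 genes as a readout of the pathway that RORgt serves. Of 19 tested genes 13 lay above 0 in RORgt-deficient A5-positive cells and 6 below, with a median of 0.29. With voom 12 lay above 0 and 7 below, with a median of 0.16. In A5-negative cells 12 lay above 0 and 7 below, with a median of 0.07. There voom gave 9 above and 10 below, with a median of -0.05. In A5-positive cells 5 had an unadjusted p below 0.05 (26.3%, against 15.0% of all tested genes). There edgeR called 0, DESeq2 2 and the block 3. Il6, an inflammatory cytokine, was higher by 1.01 ± 0.19 (adjusted p = 0.0334) and Nfkbiz, a transcriptional co-regulator, by 0.59 ± 0.14 (adjusted p = 0.0445). S100a8, an antimicrobial calcium-binding protein gene, was lower by -2.63 ± 0.63 (adjusted p = 0.0451), from 3.24 ± 0.442 to 0.528 ± 0.243 CPM. Without the block these 3 had adjusted p-values of 0.178 to 0.238 (edgeR).

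A short list of genes known to differ between mouse strains by copy number or a null allele had 5 tested members. In A5-positive cells 3 of these had an unadjusted p below 0.05 (60.0%, against 15.0% of all tested genes). Nnt, which C57BL/6J mice carry as a null allele, had a change of -0.17 ± 0.21 and Wdfy1 one of 0.02 ± 0.29. Glo1, which is duplicated in some strains, had a change of -0.53 ± 0.16 (edgeR, adjusted p = 0.207; 0.0534 with the block). Casp4, an inflammatory caspase gene with a null allele in 129 mice, was higher by 0.87 ± 0.17 with the block (adjusted p = 0.0362; without it 0.178), and Fgfbp3 is given above. The gene called in both fractions, the pseudogene Gm3608 on chromosome 1 (105455971 to 105458829), had 1.40 to 1.65 CPM in the 6 WT and 24.2 to 30.0 CPM in the 6 RORgt-deficient libraries. Its changes were 4.03 ± 0.15 (adjusted p = 1.03e-07) and 4.28 ± 0.16 (adjusted p = 5.63e-08) in A5-positive and A5-negative cells by edgeR.

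Likeness of pattern was measured over the 12 libraries as the root-mean-square difference of centred log2 CPM, in which 0 is an identical course. Closest to Mab21l3 was Capza1, an actin-capping protein gene (0.24, against a median of 0.65 over all genes compared), then Il22ra1, a receptor chain for interleukin-22 (0.34), and Ide (0.34). Capza1 had means of 61.4 and 63.9 CPM in WT and 29.9 and 27.8 CPM in RORgt-deficient A5-negative and A5-positive cells. It had changes of -1.20 ± 0.24 in A5-positive and -1.04 ± 0.24 in A5-negative cells, beside -1.04 and -1.01 for Mab21l3. Both genes lie on chromosome 3, with starts 3.02 Mb apart, and on that chromosome 23 of 873 tested genes parted in all 12 libraries (2.63%, against 1.03% of all tested genes). Closest to Ide were the mevalonate kinase gene Mvk (0.19), the kallikrein gene Klk8 (0.20) and Ttc22 (0.20; median of all genes 0.54). Apol8 was most like Fcamr, a receptor for immunoglobulins A and M (0.15), Fzd10, a Wnt receptor gene (0.25), and Il22ra1 (0.25; median 0.60). Fcamr had changes of -1.40 ± 0.27 in A5-positive and -0.18 ± 0.26 in A5-negative cells, beside -1.40 and -0.16 for Apol8. Vps33a was most like the retromer gene Vps26b, Pcyox1 and Narf (0.10 each; median 0.40), and Hs3st1 most like the glutamate transporter gene Slc1a1 (0.30), the membrane transporter gene Flvcr1 (0.30) and Prss23 (0.31; median 0.98). The 12 libraries share genotype, fraction and number effects, so that this is a description of course alone.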

How the data were processed

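The authors deposited whole-number counts per gene for 12 libraries, without normalization. Per the submitters' processing notes, bcl2fastq, Trimmomatic 0.36, STAR and featureCounts were used with GRCm38 (mm10). What annotation, strand setting and rule for multiply mapping reads was used is not given in the sources used here. Of 55341 rows, 26 with symbols turned into dates (0.110% to 0.128% of counts) were left out, and all 55315 others matched GENCODE M21. No 2 libraries of a group agreed within counting error, which for the 5 genes was 0.646% to 9.49% of a value and takes reads as independent, although there were no molecular identifiers.

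Counts were fitted with edgeR 4.0.16 in R 4.3.3 (TMM, filterByExpr, 1 mean for each of the 4 groups, quasi-likelihood F test; tested on simulated data). Benjamini-Hochberg adjustment ran over 16677 genes in each of 4 contrasts, with a threshold of 0.05. SE is the change over the root of F. Residuals after group means correlated at 0.153 to 0.722 for the 18 pairs of libraries with the same number in the labels, and at a median of -0.24 for the 36 others (9071 genes). The numbers therefore pair the libraries, and values from a fit blocked by number stand beside calls that it changes. Libraries that share a number are thus not independent, which holds for all counts of differences or pairs by number.

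The 5 genes, the lists and the tests were chosen with earlier results of these data known. The naming rule took the 5 genes, sort markers, the nearest tested genes, called genes within 1 Mb, Fgfbp3, Btaf1, each list's paralogs and called genes (or the 2 with the smallest p), and the 3 genes most alike in course above a mean log2 CPM of 1. Genes called only with the block, Gm3608, Gm47283 and Cpeb3 were added after their values were seen. Some genes that the rule names are not reported here. Alternatives were RLE factors, DESeq2 1.42.0, limma 3.58.1 voom with quality weights, no filter, a filter of 5 CPM in 3 libraries, the block, a fit of the 6 libraries compared, and omission of single libraries; for Hs3st1 the block with such omission was added after seeing the data.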

Additional observations from a re-analysis of the deposited data

Results flagged for a closer look

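Ide, Vps33a and Apol8 differed between A5-positive and A5-negative cells in one direction in all 3 WT numbers and in the opposite direction in all 3 RORgt-deficient numbers. For Ide the mean difference of log2 CPM (A5-positive minus A5-negative) was 0.19 in WT and -0.15 in RORgt-deficient mice. For Vps33a it was 0.31 and -0.14, and for Apol8 0.76 and -0.50. The difference between the genotypes was not tested for these genes, because the values that chose them enter it. Over all tested genes the interaction of genotype and A5 status called 0 genes with edgeR (458 with an unadjusted p below 0.05) and 8 with DESeq2.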

How the results depend on the processing

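The genotype changes of the 5 genes were recomputed 130 times under the alternatives, and 129 kept their direction. The exception was Apol8 in A5-negative cells, at 0.047 with voom. The averaged A5 effect of Ide, 0.01, took the other sign with RLE factors (-0.010), DESeq2 (-0.010), the stricter filter (-0.0062) and voom (-0.027), and ran from -0.085 to 0.11 without single libraries. Btaf1 ran from -0.17 to 0.48 in A5-positive and from -0.019 to 0.37 in A5-negative cells without single libraries. The count of genes called by genotype in A5-positive cells, 1, became 493 with DESeq2, 67 without a filter, 670 with the replicate block and 5 with voom. It was 1 to 2 without single libraries, with 2 when library 1 of either A5-positive group was left out. In A5-negative cells the count was 1, and 21 with DESeq2, 7 without a filter and 7 with voom. The interaction count of 0 became 8 with DESeq2. The count for the averaged A5 effect, 3039, became 5661 with the replicate block. It ran from 1751 to 4384 without single libraries, and was 1751 to 1986 without WT A5-negative library 3, WT A5-positive library 1, RORgt-deficient A5-negative library 1 or RORgt-deficient A5-positive library 1 or 3. The replicate block changed no call of the 5 genes other than that of Hs3st1. The cause of these shifts was not tested.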
